A study of Mus musculus with 4 samples.

Results

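The circadian clock genes Arntl, Clock, Per1, Per2, Per3, Cry1, Cry2, Nr1d1, Nr1d2 and Dbp were examined in the bone marrow of obese mice with and without exercise. They were picked by gene symbol, as core components and direct outputs of the molecular clock, and are 10 of the 55401 genes in the tables. RNA-seq was done on marrow spun out of the tibia of C57/B6 male mice labelled WT, all of which began the high-fat diet (HFD) at 8 weeks of age. The sedentary obese mice (Ob) stayed on the HFD without training, and the exercised obese mice (Ob + Exe) stayed on the HFD and ran on a treadmill at moderate intensity for 12 weeks. Each group had 2 libraries, so 4 libraries stand behind every value. The animals were kept under a light/dark cycle, but the hour at which the marrow was taken is not given in the sources used here, nor whether the groups were sampled at the same hour. Without it, a difference in the hour of sampling and a difference between the groups cannot be told apart.

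The mammalian clock is a feedback loop of transcription. BMAL1, the protein of Arntl, pairs with CLOCK and binds E-box sequences, where it turns on the Per and Cry genes, Nr1d1 and Nr1d2, and outputs such as Dbp. PER and CRY proteins then block BMAL1 and CLOCK, while the nuclear receptors encoded by Nr1d1 and Nr1d2 repress Arntl. Arntl and many of the E-box genes thus peak at opposite times of the day. In bone marrow the clock is known for the daily release of leukocytes and of blood stem cells into the circulation.

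Values are FPKM, that is read fragments relative to transcript length and library size, summed over the transcripts of a gene and scaled between libraries, so they can be compared between genes as levels per length. Differences are log2 fold changes of Ob + Exe relative to Ob with their standard error (SE), on the scale of log2(FPKM + 0.1), from limma fitted on 18596 genes. A call required a log2 fold change above 1 or below -1 together with an unadjusted limma p of less than 0.05. With 2 libraries against 2, an exact two-sided permutation test of a single gene cannot give a p below 0.333. The replicates are separate libraries in the labels, and nothing states that each came from a separate mouse. The authors call the sequenced marrow representative, and how it was chosen is not given in the sources used here. The p-values therefore measure only the spread between these libraries.

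The libraries rested on 8702 to 9952 Mb of aligned bases. The markers fixed for neutrophils summed to between 28111 and 65492 FPKM and those for erythroid cells to 30503 to 31688 FPKM, while the 10 markers of mesenchymal stem cells and fibroblasts, which the labels also name, summed to 24 to 30 FPKM. The libraries therefore hold mixed marrow cells. In such bulk samples, fewer cells of one type and less RNA per cell cannot be told apart.

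The binding sequences through which the loop works can be read directly upstream of some of these genes. RefSeq start-site windows of GRCm38.p6 were searched on both strands, 250 bases before each start, for the E-box CACGTG, the D-box TTATGTAA bound by DBP and its relatives, the site TAGGTCA bound by NR1D and ROR receptors, and the cyclic AMP element TGACGTCA. Of the 10 genes, 9 had a window, all but Per2, with 13 windows in all. The E-box was found in Per1 and Cry1, and the D-box in Per3, where it occurred at 205 and at 158 bases before the start. Neither of the other motifs was found in a window of the 9 genes. Among 32851 windows of all genes, 6.02% held the E-box, 0.819% the D-box, 2.23% TAGGTCA and 1.55% TGACGTCA. Counted by gene, the E-box was found in 1854 of 27025 genes, the D-box in 264, TAGGTCA in 689 and TGACGTCA in 478. The matching stretches are shown 5′ to 3′ on the strand of the gene with the motif in capitals, together with upstream stretches of Dbp and Nr1d1, the genes with the largest negative log2 fold changes, which held no match. A match does not show binding, and the lack of one says only that these letters are not in this window. Bases in annotated exons of the gene are not printed. For Dbp only the 91 bases from 250 to 160 before the RefSeq start are shown. The rest of the searched Dbp window lies inside the annotated gene. The stretches are Per1 at chr11:69098733-69098840 on the plus strand, Cry1 at chr10:85185065-85185164 on the minus strand, Per3 at chr4:151044766-151044915 on the minus strand, Dbp at chr7:45704997-45705087 on the plus strand and Nr1d1 at chr11:98775378-98775477 on the minus strand.
Per1: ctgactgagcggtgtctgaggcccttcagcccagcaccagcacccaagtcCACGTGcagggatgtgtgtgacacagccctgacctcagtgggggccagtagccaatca
Cry1: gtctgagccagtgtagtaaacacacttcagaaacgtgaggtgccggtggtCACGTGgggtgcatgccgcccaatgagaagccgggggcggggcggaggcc
Per3: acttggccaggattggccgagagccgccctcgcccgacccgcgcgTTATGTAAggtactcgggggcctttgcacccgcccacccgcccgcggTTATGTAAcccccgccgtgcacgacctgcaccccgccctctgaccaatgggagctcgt
Dbp: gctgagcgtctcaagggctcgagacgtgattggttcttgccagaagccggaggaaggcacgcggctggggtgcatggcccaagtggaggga
Nr1d1: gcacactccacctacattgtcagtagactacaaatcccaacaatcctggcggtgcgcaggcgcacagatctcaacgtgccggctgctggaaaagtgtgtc

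All 10 clock genes were expressed above the filter and were tested. Dbp was the only one called, and it was lower in Ob + Exe. None was called higher. Of all genes tested, 3.71% were called in either direction and 2.73% were called lower, and 1 call among 10 genes is too small a count to be read as a result about the clock genes as a set. In 4 clock genes the groups were separated with Ob + Exe on the low side, Arntl, Cry2, Nr1d1 and Dbp, against 18.7% of all genes tested. They were separated with Ob + Exe on the high side in 1, Per2, against 14.0% of all genes. The groups overlapped in the other 5. The median log2 fold change was -0.17 over the clock genes and -0.02 over all genes tested. No clock gene had a limma adjusted p under 0.96, and across all genes tested none had an adjusted p under 0.05, the smallest being 0.768, while 933 had an unadjusted p under 0.05.

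**Figure D1:**
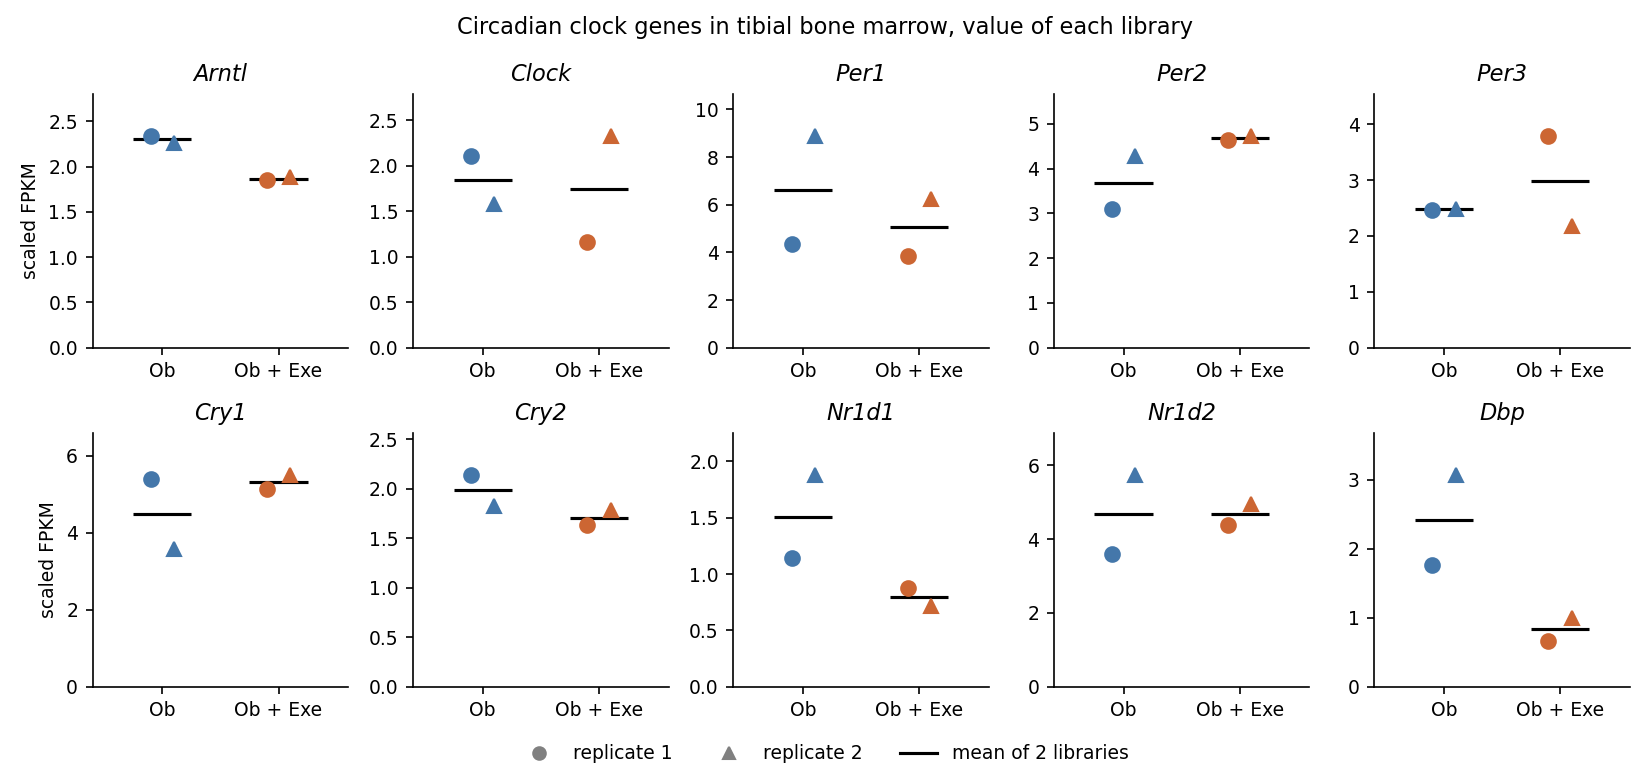
Scaled FPKM (y axis) of each clock gene in the 2 Ob and 2 Ob + Exe libraries, 1 panel per gene, with points for libraries and a line for the group mean. Dbp falls from a mean of 2.42 to 0.829 without overlap of the groups, whereas the points of Per1, Clock, Per3, Cry1 and Nr1d2 interleave.

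In the activating limb, Arntl was slightly lower in Ob + Exe. Arntl (chr7, 113207465 to 113314126 in GRCm38, plus strand) encodes BMAL1, the partner of CLOCK without which the loop stops. It stood at 2.34 and 2.26 FPKM in Ob and at 1.85 and 1.88 FPKM in Ob + Exe. The 2 libraries of each group lay close together and the groups did not overlap, with Ob + Exe lower by 18.9% in the mean. The log2 fold change was -0.29 (SE 0.36, limma adjusted p = 0.971) and Arntl was not called. Its values rested on 447 and 431 read equivalents in Ob, against 321 and 295 in Ob + Exe.

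Clock (chr5, 76209868 to 76304792, minus strand), the DNA-binding partner of BMAL1, had 2.11 and 1.58 FPKM in Ob and 1.16 and 2.33 FPKM in Ob + Exe. Both the highest and the lowest library belonged to Ob + Exe, and the log2 fold change was -0.14 (SE 0.48). The split of its reads between transcripts was also unlike in the libraries. In the first Ob library the transcript ENSMUST00000202122 held 52.85% of the FPKM of the gene, against at most 1.464% in the other 3. The main transcript ENSMUST00000202651 alone had 0.965 and 1.56 FPKM in Ob and 1.16 and 2.32 FPKM in Ob + Exe, a log2 difference of 0.39, of the opposite sign to that of the summed gene.

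Among the repressors of the negative limb, the 3 Per genes differed in sign. Per1 (chr11, 69095217 to 69109960, plus strand), which is induced quickly by light and by glucocorticoids, had the highest mean of the clock genes, with 4.35 and 8.89 FPKM in Ob and 3.86 and 6.24 FPKM in Ob + Exe. The second library of each group was the higher one, 2.04 times the first in Ob and 1.62 times the first in Ob + Exe, and the groups overlapped. The log2 fold change of -0.33 (SE 0.45, limma adjusted p = 0.974) was smaller than its error.

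Per2 (chr1, 91415982 to 91459324, minus strand), whose loss shortens and weakens the rhythm of mice, was the 1 clock gene with both Ob + Exe libraries above both Ob libraries. It had 3.1 and 4.27 FPKM in Ob and 4.64 and 4.73 FPKM in Ob + Exe. The mean was 27.2% higher in Ob + Exe, with a log2 fold change of 0.36 (SE 0.31, limma adjusted p = 0.96), and Per2 was not called. The value was 0.13 without the first and 0.58 without the second Ob library. Per3 (chr4, 151003652 to 151044665, minus strand), the least essential of the Per genes, was at 2.47 and 2.48 FPKM in Ob, while the Ob + Exe libraries lay on both sides at 3.79 and 2.17 FPKM.

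The 2 cryptochromes, the main repressors of BMAL1 and CLOCK, also pointed to different sides. Cry1 (chr10, 85131700 to 85185064, minus strand) had 5.39 and 3.57 FPKM in Ob and 5.13 and 5.5 FPKM in Ob + Exe, with overlap and a fitted log2 difference of 0.27 (SE 0.32). Cry2 (chr2, 92403646 to 92434043, minus strand) had 2.14 and 1.83 FPKM in Ob and 1.63 and 1.78 FPKM in Ob + Exe. The groups of Cry2 narrowly did not overlap, Ob + Exe was 14.2% lower in the mean, and the log2 fold change of -0.21 (SE 0.38) was within its error. Of the bases in the exons of Cry2, 4.67% are shared with the antisense gene D930015M05Rik, which had a value above 0 in the first Ob + Exe library only, at 0.415 FPKM.

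The pair of nuclear receptors that repress Arntl were unlike each other. Nr1d1 (chr11, 98767932 to 98775333, minus strand), which encodes REV-ERBα, had 1.14 and 1.88 FPKM in Ob and 0.878 and 0.719 FPKM in Ob + Exe. Both Ob + Exe libraries were lower, and the mean was 1.51 ± 0.522 FPKM in Ob and 0.799 ± 0.113 FPKM in Ob + Exe (SD, n = 2), a 1.89-fold difference. The log2 fold change was -0.81 (SE 0.49, limma adjusted p = 0.96), and Nr1d1 was not called. The value was -1.14 without the first and -0.47 without the second Ob library. These levels rest on 211 and 338 read equivalents in Ob, against 125 and 107 in Ob + Exe. Nr1d2 (chr14, 18204054 to 18239127, minus strand), which encodes REV-ERBβ, had 3.6 and 5.74 FPKM in Ob and 4.39 and 4.96 FPKM in Ob + Exe. Both group means of Nr1d2 were 4.67 FPKM, and the Ob + Exe libraries lay between the Ob libraries.

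Nr1d1 overlaps Thra, the thyroid hormone receptor α gene on the opposite strand, over 263 of its 3077 exon bases. The strand setting of the library is not given in the sources used here, and without it reads of such a shared stretch cannot be assigned to either gene. Thra had 7.565 and 7.6 FPKM in Ob and 8.533 and 9.149 FPKM in Ob + Exe, the opposite order to Nr1d1. The part this overlap has in the Nr1d1 values was not tested.

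The largest difference among the clock genes was in Dbp (chr7, 45705088 to 45710203, plus strand), a PAR bZIP transcription factor that carries the rhythm of the E-box to D-box genes and has one of the widest daily swings known in mouse tissues. Dbp had 1.76 and 3.07 FPKM in Ob and 0.666 and 0.992 FPKM in Ob + Exe. The higher Ob + Exe library was still well under the lower Ob library. The mean fell by 65.7%, from 2.42 ± 0.926 to 0.829 ± 0.23 FPKM (SD, n = 2), a 2.91-fold difference. The log2 fold change was -1.41 (SE 0.49). It passed the unadjusted threshold of the call, while the limma adjusted p was 0.96. In the ranking of all genes tested by p, Dbp came at place 554. The call rests on 185 and 291 read equivalents in Ob, against 57 and 91 in Ob + Exe. It was lost without any 1 of the 4 libraries, with log2 fold changes from -1.79 to -1.02, with a pseudocount of 1, where the log2 fold change was -0.88, and with no filter on low values.

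Dbp has 5 annotated transcripts, of which 4 had a value above 0 in at least 1 library. The main protein-coding transcript ENSMUST00000080885 had 1.003 and 1.337 FPKM in Ob and 0.4176 and 0.5343 FPKM in Ob + Exe, again with no overlap and with the 2 libraries of each group closer than in the summed gene. Its log2 difference, on the log2(FPKM + 0.1) scale, was -1.14. Transcripts with retained introns held a good part of the rest. ENSMUST00000210120 had 0.2773 and 1.019 FPKM in Ob and 0.2484 and 0.1407 FPKM in Ob + Exe, and ENSMUST00000211748 had 0.1725 and 0.4728 FPKM in Ob and 0 and 0.3165 FPKM in Ob + Exe. The high value of the second Ob library in the summed gene came in large part from these 2 transcripts. A second protein-coding transcript, ENSMUST00000211513, was at 0.3081 and 0.2424 FPKM in Ob and listed at 0 in both Ob + Exe libraries.

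**Figure D2:**
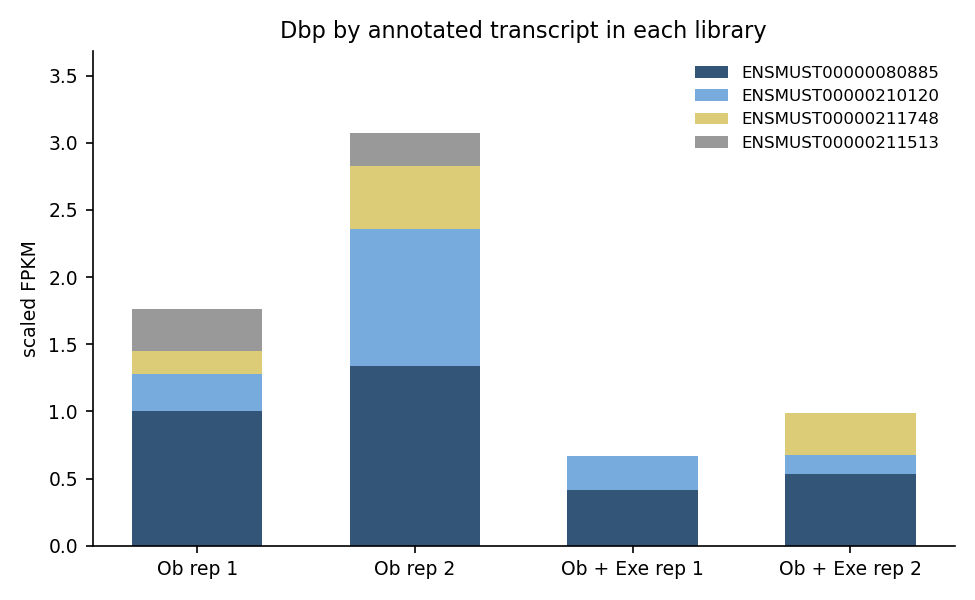
FPKM of the annotated Dbp transcripts (stacked bars, y axis from 0) in the 4 libraries (x axis). The main protein-coding transcript, 1.003 and 1.337 FPKM in Ob against 0.4176 and 0.5343 FPKM in Ob + Exe, separates the groups, and the retained-intron transcripts add most to the second Ob library.

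Dbp shares 539 of its 2993 exon bases with Sphk2, sphingosine kinase 2, on the opposite strand. Sphk2 had 7.584 and 6.769 FPKM in Ob and 8.592 and 6.023 FPKM in Ob + Exe, with overlap of the groups. As for Nr1d1 and Thra, the part this overlap has in the Dbp values was not tested.

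Markers of cell types were read beside these values, and they went in both directions. The 4 endothelial markers were each lower in both Ob + Exe libraries and summed to 15.8 and 14.4 FPKM in Ob and to 10.7 and 9.93 FPKM in Ob + Exe, and none of the 4 was called. Of the 7 B cell markers, 4 separated the groups on the low side of Ob + Exe and 1 was called lower, with sums of 186 and 196 FPKM in Ob and 156 and 122 FPKM in Ob + Exe. Of the 6 skeletal muscle markers, 5 were tested and 1 was called higher, with sums of 5.41 and 1.72 FPKM in Ob and 8.25 and 8.12 FPKM in Ob + Exe. Of the 6 adipocyte markers, 4 were tested and none was called, with sums of 68.9 and 73 FPKM in Ob and 117 and 92.7 FPKM in Ob + Exe. Of the 6 osteoblast markers, 3 separated the groups on the low side and 1 was called lower, with sums of 15.1 and 23.4 FPKM in Ob, as against 13.8 and 13.7 in Ob + Exe. Of the 5 megakaryocyte markers, 2 separated the groups on the low side and 1 was called lower, with sums of 451 and 327 FPKM in Ob, as against 368 and 136 in Ob + Exe. Of the 10 mesenchymal stem cell and fibroblast markers, 1 was called lower, 1 was separated on the low and 2 on the high side. Of the 5 monocyte markers, 3 separated the groups on the high side and none was called, with overlapping sums. The sums of the neutrophil, erythroid, T and NK cell, macrophage, and stem and progenitor markers also overlapped between the groups, and none of these markers was called. Over all genes tested, 18.7% were separated on the low side, 14.0% on the high side, 2.73% were called lower and 0.979% higher. The part of these cell types in the Dbp and Nr1d1 values was not tested.

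**Figure D3:**
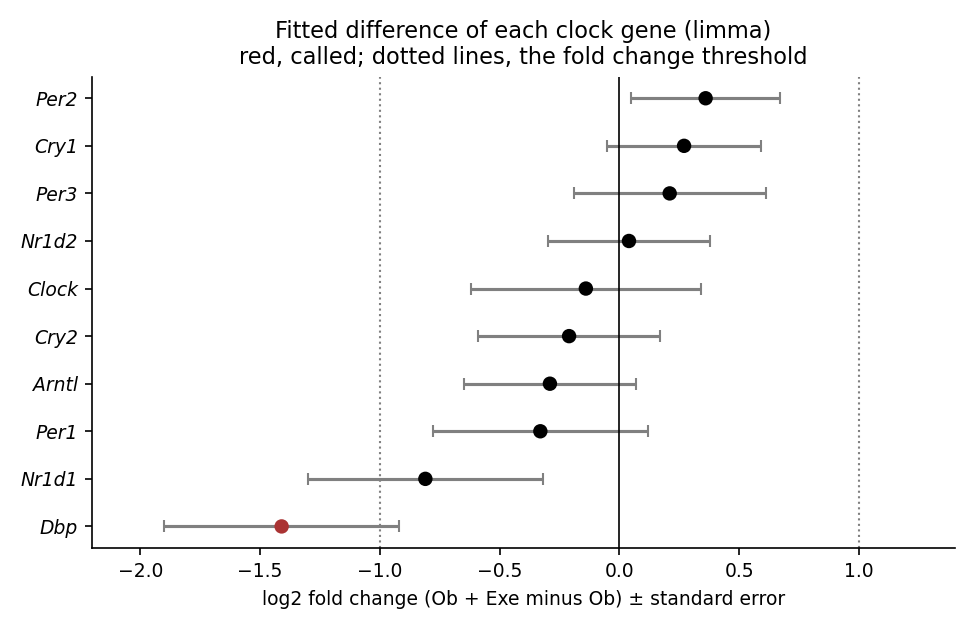
Log2 fold change of each clock gene, Ob + Exe relative to Ob (x axis), with its standard error as the bar. Dbp lies at -1.41 and Nr1d1 at -0.81, and the other 8 genes lie between -0.33 and 0.36.

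In the order of mean level over the 4 libraries, Per1 was highest at 5.83 FPKM, followed by Cry1 at 4.9, Nr1d2 at 4.67, Per2 at 4.18, Per3 at 2.73, Arntl at 2.08, Cry2 at 1.85, Clock at 1.8, Dbp at 1.62 and Nr1d1 at 1.15 FPKM. The ranges over the libraries of every pair of neighbours in this order overlapped. Within each library, Per2 was above Per3, Per3 above Arntl and Arntl above Cry2, while the other neighbours changed order between libraries. The second Ob library was the highest of the 4 in Per1, Nr1d1, Nr1d2 and Dbp, and the first Ob + Exe library was the lowest in Arntl, Clock, Per1, Cry2 and Dbp. Per1, Per2, Nr1d2 and Dbp were higher in the second library than in the first in both groups. For 5 genes, Arntl, Per2, Cry2, Nr1d1 and Dbp, the difference between the groups exceeded the pooled SD of the log2 values. These are the same 5 genes in which the groups were separated. With 2 libraries in each group, the pooled SD equals the ordinary standard error of the difference, so this bar is low. The share of all genes that pass it was not computed.

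Many E-box genes cycle in opposite phase to Arntl. Of these, 6 were used, Per1, Per2, Per3, Nr1d1, Nr1d2 and Dbp, while Cry1 and Cry2 were left out. Among the 6, only Per1 had the E-box letters in a searched window, and Per2 had no window. The mean log2 value of the 6 genes was set against that of Arntl in each library. The difference was 0.1 and 0.74 in Ob, as against 0.36 and 0.4 in Ob + Exe. The Ob + Exe libraries lay between the Ob libraries, and the groups differed by -0.04, against a pooled SD of 0.32. The sign and size rested on single Ob libraries, with -0.36 without the first and 0.28 without the second. The E-box genes did not move as a block relative to Arntl: Dbp and Nr1d1 were lower in both Ob + Exe libraries, Per2 was higher, and Per1, Per3 and Nr1d2 overlapped.

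Ratios of 2 genes within a library need no scaling between libraries, and several of them separated the groups. For the ratios of Dbp and of Nr1d1 to Per2 this separation was fixed in advance and adds no evidence. Dbp and Nr1d1 were already separated on the low side of Ob + Exe, and Per2 on the high side. The ratio of Dbp to Per2, both E-box genes, was 0.568 and 0.719 in Ob, as against 0.144 and 0.21 in Ob + Exe, a log2 difference of -1.88 with a pooled SD of 0.32. The ratio of Nr1d1 to Per2 was 0.367 and 0.439 in Ob, as against 0.189 and 0.152 in Ob + Exe, a log2 difference of -1.24 with a pooled SD of 0.2. In both ratios the 2 Ob libraries lay close together, although the single levels of Dbp and Nr1d1 differed between them.

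The 2 receptors behaved likewise, with a ratio of Nr1d1 to Nr1d2 of 0.316 and 0.327 in Ob, as against 0.2 and 0.145 in Ob + Exe. Dbp relative to Tef, another PAR bZIP activator of the D-box, was 0.323 and 0.338 in Ob, as against 0.104 and 0.173 in Ob + Exe. Dbp relative to Nfil3, the repressor that competes for the D-box, was 0.22 and 0.463 in Ob, as against 0.0628 and 0.0967 in Ob + Exe, a log2 difference of -2.03 with a pooled SD of 0.62. Each of these ratios was lower in both Ob + Exe libraries. The ratio of Per2 to Arntl was higher in both, at 1.33 and 1.89 in Ob and 2.51 in each Ob + Exe library. The ratio of Per1 to Arntl overlapped, at 1.86 and 3.93 in Ob, as against 2.09 and 3.31 in Ob + Exe. The ratios of Dbp to Nfil3 and of Per2 to Arntl were likewise bound to separate, since their genes were already separated on opposite sides. The genes of all these ratios, Tef included, were chosen with the levels known, and no test was made on them.

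**Figure D4:**
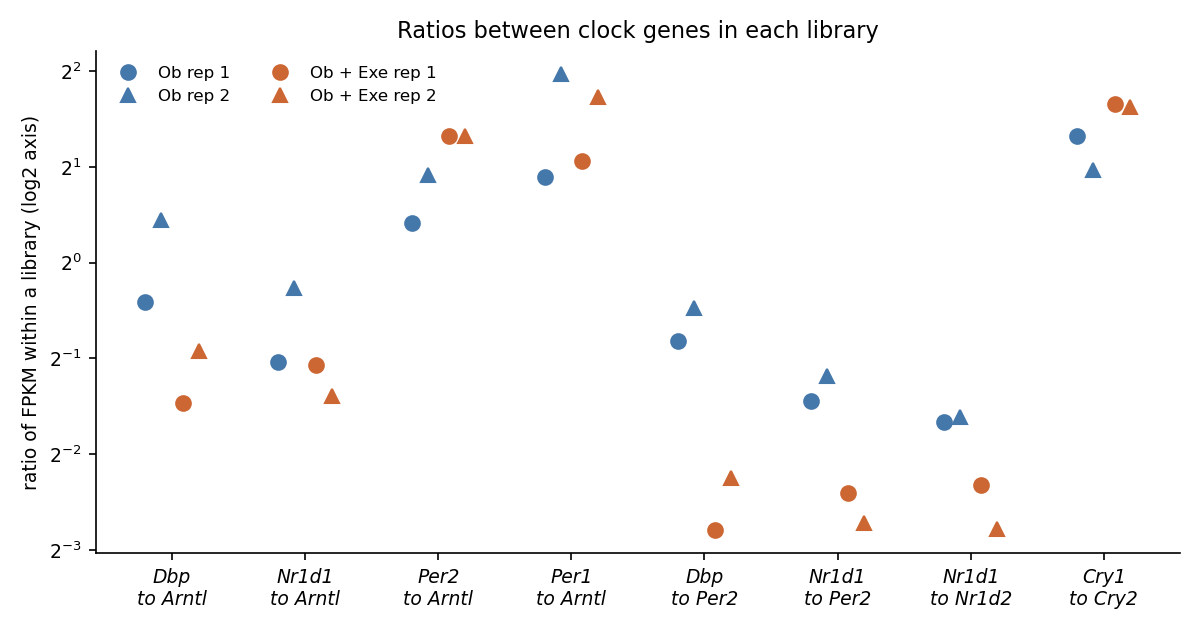
Ratios of FPKM between pairs of clock genes within each library (log axis), with points for the 2 Ob and 2 Ob + Exe libraries. Dbp to Per2 and Nr1d1 to Per2 lie at 0.367 to 0.719 in Ob and at 0.144 to 0.21 in Ob + Exe, while Per1 to Arntl overlaps.

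The rest of the clock machinery was examined in 5 lists of 29 further components, of which 25 were tested. None of the 25 was called. Their log2 fold changes were positive in 17 and negative in 8, with a median of 0.11. The groups were separated with Ob + Exe on the high side in 8 and on the low side in 4, while over all genes tested 47.9% were positive, 14.0% were separated on the high side and 18.7% on the low side. Among the other repressors of the loop, Ciart, which binds BMAL1 and whose RefSeq windows held 3 E-boxes, had 0.563 and 0.862 FPKM in Ob and 0.483 and 0.259 FPKM in Ob + Exe (log2 fold change -0.8, SE 0.61). Nfil3 had 7.99 and 6.64 FPKM in Ob and 10.6 and 10.3 FPKM in Ob + Exe, with a log2 fold change of 0.51 (SE 0.25). Ciart was lower and Nfil3 higher in both Ob + Exe libraries.

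Npas2, which can replace CLOCK, had the largest log2 fold change of the 25, 1.5 with an SE of 1.08. It was at 0.0589 and 0.0198 FPKM in Ob and 0.844 and 0.0607 FPKM in Ob + Exe, so that the value rested on the first Ob + Exe library. Of the PAR bZIP and ROR factors, Rora had the smallest log2 fold change at -0.24 and Hlf the largest at 0.42. All 9 tested genes for the turnover of PER and CRY proteins, among them kinases, ubiquitin ligase parts and the ubiquitin protease gene Usp2, had positive log2 fold changes, from 0.04 in Csnk1e to 0.33 in Prkaa1. The groups were separated on the high side in 3 of the 9. Over all genes tested, 47.9% had a positive log2 fold change and 14.0% were separated on this side, and none of the 9 was called. Without scaling the median log2 fold change of all genes was -0.1 instead of -0.02. The sign of a value as small as that of Csnk1e therefore depends on the scaling. The cofactors of the clock complexes ranged from -0.4 in Ncor1 to 0.39 in Sirt1.

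Rhythmic outputs downstream of the clock were likewise mixed. Of 9 clock outputs, none was called, with log2 fold changes from -0.68 in Tspan4 to 0.76 in Noct. Noct, a rhythmic phosphatase known from lipid metabolism, had 14.8 and 22.2 FPKM in Ob and 29.8 and 31.8 FPKM in Ob + Exe, without overlap (limma adjusted p = 0.96). It passed the unadjusted threshold and missed the call because its log2 fold change was within 1. Of 11 genes for leukocyte homing, a rhythmic process of marrow, 10 were tested and none was called, and the groups overlapped in 9. Cxcl2 was at -0.74 (SE 1.12) and Cxcr2 at 0.53 (SE 0.74) on the log2 scale. Cxcl2 had very low values, 0.508 and 0.263 FPKM in Ob and 0 and 0.686 FPKM in Ob + Exe. Its negative log2 fold change rested on the first Ob + Exe library.

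Per1 also responds to signals from outside the loop, and lists of glucocorticoid and immediate early genes covered these. Of 14 genes of the glucocorticoid response, 1 was called, Il1r2, the decoy receptor of interleukin-1, which was higher in Ob + Exe. It had 14 and 9.16 FPKM in Ob and 21.2 and 30.7 FPKM in Ob + Exe, with a fitted log2 difference of 1.17 (SE 0.31, limma adjusted p = 0.96). The smallest in this list was Ddit4 at -0.65. Of 12 immediate early genes, 1 was called, Fos, a subunit of AP-1, which was higher in Ob + Exe at 13.6 and 16.1 FPKM against 5.82 and 6.3 FPKM in Ob (log2 fold change 1.28, SE 0.24, limma adjusted p = 0.943). Egr2 had the largest log2 fold change at 1.31 but was not called, and Nr4a1, an orphan nuclear receptor, the smallest at -0.78, with 8.12 and 10.6 FPKM in Ob and 5.81 and 4.92 FPKM in Ob + Exe. Nr4a1 passed the unadjusted threshold without overlap of the groups and missed the call because its log2 fold change was within 1. Of the 12 immediate early genes, 9 had a positive and 3 a negative log2 fold change. Over the 9 lists together, 70 of 75 genes were tested, 2 were called higher and none lower, against 0.979% and 2.73% of all genes tested.

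**Figure D5:**
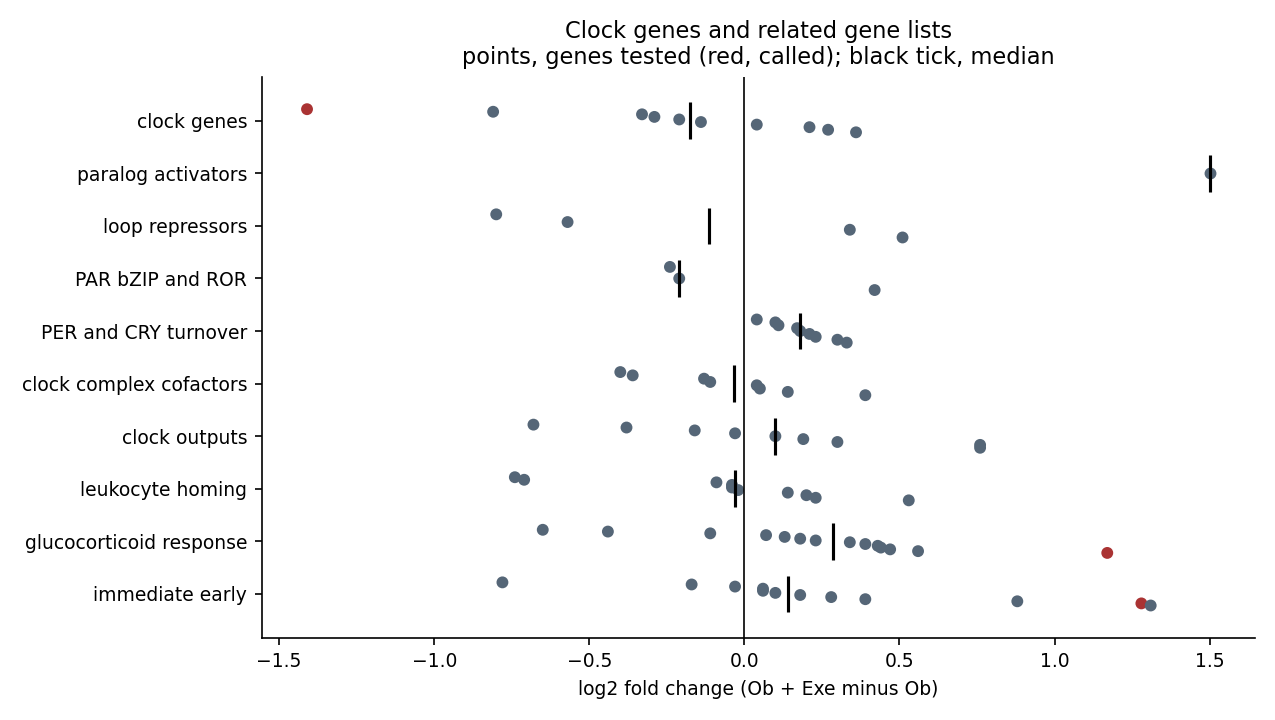
Log2 fold change, Ob + Exe relative to Ob (x axis), of every tested gene of the clock genes and the 9 related lists (rows), with called genes marked. Dbp is the only called gene on the lower side, and Il1r2 and Fos lie on the higher side. On the scaled values shown, all 9 genes for the turnover of PER and CRY lie above 0.

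The pattern of Dbp over the libraries was compared with that of 12401 genes with a mean of at least 1 FPKM, by the Euclidean distance between mean-centred log2 values over the 4 libraries. Dbp spanned 2.05 on the log2 scale, the widest of the clock genes at this level. The nearest genes were CT010467.2 at a distance of 0.12, Uqcrq, a subunit of mitochondrial complex III, at 0.16 and Gm14098 at 0.23. CT010467.2 was at 272 and 501 FPKM in Ob and 108 and 164 FPKM in Ob + Exe, and Uqcrq at 65.6 and 98.6 FPKM in Ob and 27.1 and 35.5 FPKM in Ob + Exe. None of the 3 was in the clock lists. With 4 libraries, many genes can share such an order.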

How the data were processed

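RNA-seq tables of 4 libraries, 2 Ob and 2 Ob + Exe, were used. The authors trimmed reads with fastp, removed rRNA reads, aligned the rest to GRCm38 with HISAT2 and used StringTie for the transcripts of GENCODE vM25. The deposited tables hold FPKM and coverage for 142604 transcripts, and the coverage is a signal not normalized for depth. The authors tested counts with DESeq2, and no counts were used here. Coverage times length divided by 150 bases gave read equivalents. No statement is made on the 37 mitochondrial transcripts, all at 0.

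FPKM were summed per gene and scaled with median-of-ratios factors of 0.9494 to 1.0326 over 12235 genes. The filter kept a mean FPKM of 0.1 or more. The test on log2(FPKM + 0.1) used limma 3.58.1 and R 4.3.3 (lmFit, eBayes with an intensity trend, 2 residual and 3.73 prior degrees of freedom), and p-values were adjusted by Benjamini-Hochberg over all genes tested. The test was checked on simulated data with changes of 2 on the log2 scale only. Every clock gene differed by less, so this check does not cover differences of their size. Exons and gene types came from GENCODE vM21, in which all 10 clock genes have the same coordinates.

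The members and the lists were chosen by hand with earlier results of these data known, so no p was computed over a list. Named genes are all clock genes, from each other list the called genes and those with the largest and the smallest log2 fold change, and the 3 genes nearest in pattern to the clock gene with the widest range. Outside this rule, Tef and Usp2 were named after their values were seen, and genes that overlap a clock gene were named for the overlap. Of 167 listed symbols, 166 were found. The alternatives were voom from limma on the read equivalents with TMM factors, quantile normalization, unscaled values, a fit with no trend, other pseudocounts and filters, a replicate block and leaving out each library. Mean ± SD are over 2 libraries, and this number limits the precision, as does the depth for genes of low level. Tables were handled with pandas 2.3.3 and figures drawn with matplotlib 3.10.9.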

Additional observations from a re-analysis of the deposited data

How the results depend on the processing

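Dbp kept its negative log2 fold change under all alternatives, from -1.79 to -0.88, but its call was not stable. Its limma adjusted p in the main fit was 0.96. Leaving out a library or changing the pseudocount could not turn the sign, because both Ob + Exe values lay below both Ob values. Other filters, no intensity trend and the replicate block left the log2 fold change at -1.41 by design. These alternatives therefore say nothing on how stable the direction is. The number of clock genes called was 0 with a pseudocount of 1 (log2 fold change of Dbp -0.88, within 1) and 0 with no filter (where its unadjusted p was no longer under 0.05), and 0 to 0 when any library was left out, where a lone library is assumed to vary like the other group. Without 1 library, Dbp had -1.79 to -1.02 and the median log2 fold change of the clock genes was -0.28 to -0.07. The number of clock genes with all remaining Ob + Exe libraries above all remaining Ob libraries was then 2 to 3, against 1 in the main fit. The number on the low side was 4 to 6, against 4. Any gene separates more easily with fewer libraries, and the matching shares of all genes are not given here. These counts therefore show no shift of the clock genes. Small log2 fold changes turned sign. Clock was 0.01 with limma voom and -0.62 to 0.33 without 1 library, and Nr1d2 was -0.05 without scaling, which shifted the median of all genes to -0.1, and -0.29 to 0.36 without 1 library. Leaving out 1 library also gave -0.84 to 0.17 for Per1, -0.18 to 0.59 for Per3, -0.02 to 0.56 for Cry1, -1.14 to -0.47 for Nr1d1, 0.13 to 0.58 for Per2, -0.31 to -0.1 for Cry2 and -0.36 to 0.28 for the E-box genes relative to Arntl, which was 0.01 with a pseudocount of 1. The cause was not tested. Over all genes, 690 were called, against 224 with a pseudocount of 1, 267 with a minimum of 1 FPKM, 455 with voom, 1061 with no intensity trend, 1262 without the first and 1922 without the second Ob + Exe library.

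The replicate numbers come from the labels, which describe no pairing. The differences of second minus first library correlated at -0.1059 between the groups over all tested genes and at -0.2351 over those with a mean of at least 1 FPKM. With the replicate number as a block, 1 clock gene was called, Dbp, and 776 genes in all, 28 of them with an adjusted p under 0.05. With the crossed pairing, which was added after seeing the data, 1 clock gene and 782 genes were called, 6 with an adjusted p under 0.05.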
